A study of Mus musculus with 6 samples.

Results

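Wnt proteins are secreted signals that bind Frizzled receptors together with the co-receptors Lrp5 or Lrp6. Binding stops the breakdown of beta-catenin, which then joins the Tcf and Lef factors in the nucleus and switches on target genes. Secreted antagonists of the Sfrp, Dkk and Wif families hold this signal back. In preadipocytes Wnt signalling is known to restrain their conversion into fat cells, and Wnt10b is the ligand most often linked to that brake.

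The genes described here are those whose symbol begins with Wnt, Fzd, Dkk or Sfrp and a number, and 12 further receptors, antagonists and nuclear effectors. The array carried 99 probe sets that name 1 such gene alone, out of 45037 probe sets, and they stand for 49 genes out of 18193. By role they were 19 ligands, 14 receptors, 10 secreted antagonists and 5 intracellular genes, and Fzd10os, a non-coding antisense RNA whose symbol meets the naming rule. No probe set named Tcf7 alone, so Tcf7 has no value here. The rule reads gene symbols and no measured value, though it was drawn up with earlier results of these data known.

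The RNA came from 3T3-L1, an established mouse line of fibroblast-like preadipocytes that hormones can drive to become adipocytes. By their labels 3 samples, called cultures below, were controls and 3 were treated with resveratrol, a polyphenol of grapes and other plants. Each was hybridised to its own one-colour Affymetrix array. No label gives a dose, a length of treatment, a vehicle or a state of differentiation. None says whether the samples of a group came from separate cultures or were grown on separate occasions. The p-values thus cover only the spread between these 6 arrays. Array number limits the precision of all values. Intensities are linear, as deposited, and every difference below is resveratrol minus control on the scale of log2(intensity + 16), where the added 16 makes changes of dim probe sets look smaller than they were.

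As a check of the cell type, the fat cell genes Fabp4, Adipoq and Pparg had control means of 11745, 8620 and 2540 and the preadipocyte gene Dlk1 one of 3854. The summed intensity of 6 adipocyte markers ran from 28741 to 43711 on the control arrays and from 28510 to 35211 with resveratrol, and that of 7 fibroblast markers from 26156 to 32302 and from 23747 to 28482. The summed intensity of 7 macrophage markers ran from 281 to 358 in control and from 387 to 439 in treated cultures, without overlap, while the defining markers Ptprc and Itgam were too dim to be tested. Single markers moved within these sums. In limma, adjusted over all probe sets tested, the adipocyte glucose transporter Slc2a4 fell by 1.38 on the log2 scale (adjusted p = 1.5e-06), the fibroblast surface gene Thy1 rose by 0.40 (adjusted p = 0.0078) and the macrophage marker Cd14 rose by 0.47 (adjusted p = 0.0365). Pparg, the master regulator of fat cells, was lower in treated cultures without overlap and did not pass (-0.26, adjusted p = 0.061). The same held for Col1a1 of the fibroblast markers (-0.32, adjusted p = 0.0757), and the macrophage marker Adgre1 had -0.04. Of 6 adipocyte, 7 fibroblast and 5 macrophage markers tested, 1 each passed, beside 10.5% of all genes tested. Their median differences were -0.24, -0.07 and 0.21. The part of these markers in the results below was not tested. In a bulk culture, fewer cells of a type and less RNA per cell cannot be told apart.

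Of the 99 probe sets, 59 were bright enough to be tested, and they cover 32 of the 49 genes. Sfrp2 rose and Lrp6 fell with resveratrol, and the other 30 genes did not pass the test at an adjusted p of 0.05 (limma, Benjamini-Hochberg over all 27022 probe sets tested). In probe sets this is 2 of 59, or 3.39%, where the same test called 8.17% of all probe sets tested (3.95% higher and 4.22% lower). In genes it is 2 of 32, or 6.25%, beside 10.5% of the 12629 genes tested (5.32% higher and 5.21% lower). The median difference over the 32 genes was -0.00046, and over all genes tested it was 0.02. At an unadjusted p under 0.05, 8 of the 59 probe sets (13.6%) and 21.7% of all probe sets tested passed. Because a gene that is high in 1 group passes the brightness filter more easily, these counts describe the tested probe sets and not all 99.

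**Figure D1:**
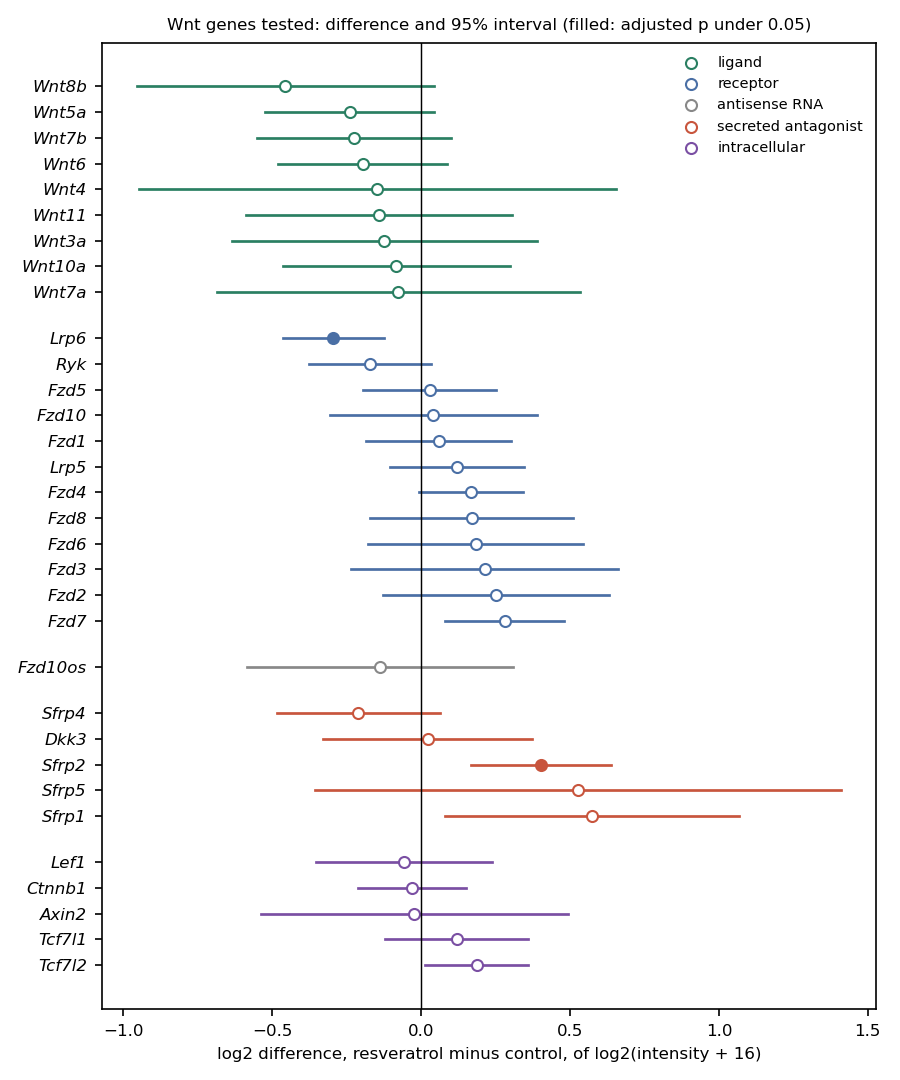
Difference on the log2 scale (horizontal axis, resveratrol minus control) of the 32 tested genes, each by its brightest probe set, grouped by role, with bars for the 95% interval. Filled points passed at an adjusted p of 0.05: Lrp6 at -0.29 and Sfrp2 at 0.40. The 9 ligands lie left of 0 and the 9 Frizzled genes right of it, counts that fall to 5 and 7 when 1 array is left out, and none of these passed.

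On the scale of log2(intensity + 16) the data bounded most of these genes within -1 and 1. The 95% interval of the difference lay within -0.5 and 0.5 for 16 of the 32 genes and within -1 and 1 for 30. The exceptions were Sfrp1 and Sfrp5, whose intervals reached 1.07 and 1.41. A p above the threshold does not show that a gene was unchanged, and the intervals bound what could have been missed on this scale only. The added 16 shrinks the differences of dim genes. With 1 added instead, the lowest difference of a ligand was -0.70 in place of -0.46. The highest of a secreted antagonist was then 1.01 in place of 0.57.

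Among the receptors, Lrp6 fell. Lrp6 encodes the single-pass co-receptor that is phosphorylated when a Wnt binds and that draws Axin away from the destruction complex. Its brighter probe set had intensities of 861, 924 and 971 in control cultures and 742, 705 and 790 in treated cultures. The highest treated value lay below the lowest control value. The difference was -0.29 ± 0.08 (SE, n = 3 per group, adjusted p = 0.0408, limma). The dimmer probe set of Lrp6 had 219, 188 and 186 in control and 159, 156 and 157 in treated cultures, again without overlap, and a difference of -0.30 ± 0.10 that did not pass (adjusted p = 0.086). Both probe sets thus gave a fall of nearly the same size, and with their mean the difference was -0.30 (adjusted p = 0.0136).

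Sfrp2 encodes a secreted Frizzled-related protein that can bind Wnt ligands outside the cell. It had 1 probe set, with 174, 220 and 215 in control and 297, 250 and 272 in treated cultures. The lowest treated value lay above the highest control value. The difference was 0.40 ± 0.11 (SE, n = 3 per group, adjusted p = 0.0415, limma).

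The calls of Lrp6 and Sfrp2 stood close to the threshold, and leaving out arrays ended them. For Lrp6 the adjusted p was 0.035 without control replicate 1, and 0.124, 0.101, 0.122, 0.161 and 0.0515 without control replicate 2, control replicate 3 and resveratrol replicates 1, 2 and 3. For Sfrp2 it was 0.0986, 0.0627 and 0.058 without control replicates 1, 2 and 3 and 0.156, 0.0628 and 0.0925 without resveratrol replicates 1, 2 and 3. The differences kept their sign in all of these fits, from -0.34 to -0.25 for Lrp6 and from 0.30 to 0.46 for Sfrp2. The arrays also differ in the signal of the spiked hybridisation controls, which was higher on control replicates 1 and 2 and resveratrol replicate 1. Within the arrays of brighter and of dimmer spikes Lrp6 had -0.26 and -0.37, and Sfrp2 0.56 and 0.26. With this split as a block Lrp6 passed (-0.32, adjusted p = 0.0452) and Sfrp2 did not (0.41, adjusted p = 0.0718).

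**Figure D2:**
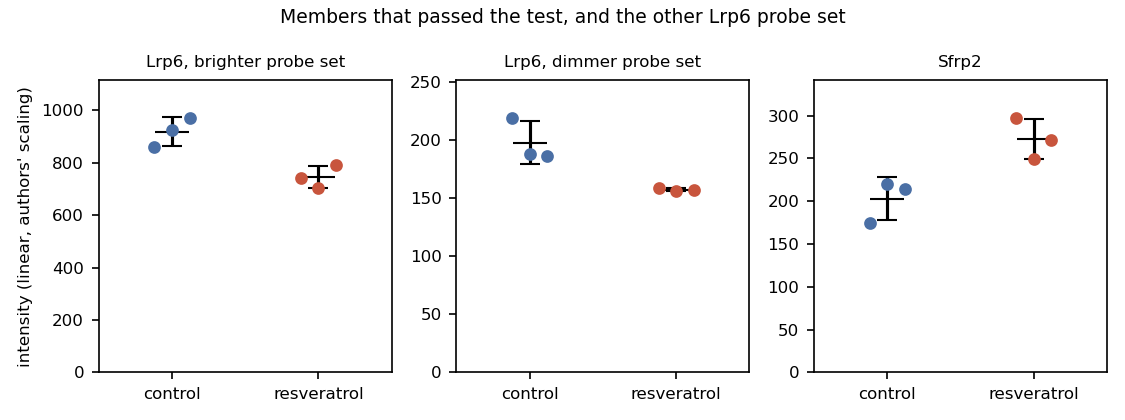
Intensity on each of the 6 arrays (points; vertical axis linear, from 0) for both Lrp6 probe sets and for Sfrp2, with the group mean and SD as bars. In each panel the 3 control and the 3 resveratrol arrays do not overlap, and the Lrp6 means go from 918 to 746 and from 198 to 157, the Sfrp2 means from 203 to 273.

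The Frizzled genes encode the membrane-spanning receptors that bind the Wnt ligand itself. Of the 10 Frizzled genes on the array 9 were tested, all had a difference above 0, from 0.03 to 0.28, and none passed. In limma 1 of 9 genes had an unadjusted p under 0.05, beside 21.7% of all probe sets tested. Here and below this share counts probe sets, whereas each gene is counted once, by its brightest probe set. Among all genes tested 53.6% had a difference above 0. The count of Frizzled genes above 0 was also 9 with quantile normalization and with added values of 1 or 64, and with the spike split described above as a block. Leaving out control replicate 1 lowered it to 7, and leaving out control replicate 2 to 8. Fzd7 came closest to the threshold, with 152, 157 and 172 in control and 204, 197 and 194 in treated cultures. Its groups did not overlap, and the difference was 0.28 ± 0.09 (95% interval 0.08 to 0.48, adjusted p = 0.0892). Fzd7 passed in a limma fit on genes rather than probe sets, with the same difference of 0.28 (adjusted p = 0.0395). Why it passed there was not tested.

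Fzd1, a widely expressed Frizzled receptor and the one with the brightest probe set here, had 933, 1023 and 1242 in control and 1167, 975 and 1179 in treated cultures. These values overlapped widely, and the difference was 0.06 ± 0.11 (95% interval -0.19 to 0.30, adjusted p = 0.825). Its other probe set had 0.14 (adjusted p = 0.551). Fzd4, the receptor of Norrin as well as of Wnts, had 377, 414 and 381 in control and 435, 420 and 468 in treated cultures. The groups lay just apart, with a difference of 0.17 ± 0.08 (adjusted p = 0.251). Its other probe sets had 0.05 and 0.13.

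For Fzd2 all 3 probe sets had differences above 0, at 0.25, 0.17 and 0.11, and 2 of them were without overlap. The brightest did overlap, with 277, 210 and 375 in control and 391, 336 and 288 in treated cultures. Fzd5 differed between its probe sets: the brighter had 0.03 (adjusted p = 0.914), and the dimmer had 0.44 (adjusted p = 0.138), going from 21.4, 25.7 and 19.1 to 33.5, 37.7 and 35.1. Of the 4 tested probe sets of Fzd3, 2 lay above 0 and 2 below. Fzd6, Fzd8 and Fzd10 had 0.18, 0.17 and 0.04 (adjusted p = 0.589, 0.6 and 0.919).

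The remaining receptors did not pass. Lrp5, the close relative of Lrp6, had a mean of 201 ± 21.6 (SD, n = 3) in control and 220 ± 18.2 in treated cultures and a difference of 0.12 (95% interval -0.10 to 0.35, adjusted p = 0.566). The interval of Lrp6 ran from -0.47 to -0.12. Whether these co-receptors differed in their response was not tested. Ryk, a receptor with a Wnt-binding WIF domain, had -0.17 at its brightest probe set and 0.16 and -0.10 at the others (adjusted p = 0.329, 0.46 and 0.848). Ror2, the receptor kinase of Wnt5a, and Fzd9 were too dim to be tested. The antisense RNA Fzd10os had -0.14 and 0.05 at its probe sets (adjusted p = 0.771 and 0.917).

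Among the ligands 9 of 19 genes were tested. All 9 had a difference below 0, from -0.46 to -0.08 with a median of -0.15. None passed in limma, beside 10.5% of all genes tested. Of the 14 tested ligand probe sets 0 had an unadjusted p under 0.05, beside 21.7% of all probe sets tested. In each of these 14 the groups overlapped, while they did not overlap in 26.4% of all probe sets tested. Among the 14 ligand probe sets 12 had a difference below 0, where 48.1% of all probe sets tested had one. Several of these probe sets share a gene, 4 of them Wnt5a. The count of ligand genes below 0 was also 9 with quantile normalization and with added values of 1 or 64. It fell to 7 without control replicate 2, to 5 without control replicate 3 and to 7 without resveratrol replicate 2. Control replicate 1 had the lowest of the 3 control values in 10 of the 14 ligand probe sets (71.4%), against 36.2% of all probe sets tested. The ligand median was -0.38 without that array and -0.22 without resveratrol replicate 1, but it shrank to -0.07 when control replicate 2 was left out and to -0.06 when control replicate 3 was. The intensity summed over the 19 ligand genes, each by its brightest probe set, was 664, 919 and 954 on the control arrays. On the resveratrol arrays it was 720, 658 and 722, so control replicate 1 lay among the treated values and the other controls above them. Wnt5a and Wnt6 weigh most in this sum, and 10 of the 19 genes were too dim to be tested. Signals of different probe sets are not comparable as amounts of transcript.

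Wnt5a, a ligand that signals largely without beta-catenin, was the ligand with the brightest probe set. That probe set had 200, 258 and 298 in control and 202, 196 and 229 in treated cultures. Control replicate 1 lay within the treated range, and the difference was -0.24 ± 0.13 (95% interval -0.52 to 0.04, adjusted p = 0.319). The 3 other tested probe sets of Wnt5a had 0.17, -0.34 and -0.19, and none passed. Wnt6, which like Wnt10a and Wnt10b is known to restrain adipogenesis in cell lines, had 149, 139 and 164 in control and 142, 145 and 105 in treated cultures. Only resveratrol replicate 3 stood below the rest, and the difference was -0.20 ± 0.13 (adjusted p = 0.431). Its dimmer probe set had -0.01 (adjusted p = 0.986).

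Wnt10b had 5.43, 7.5 and 10.9 in control and 8.0, 8.3 and 6.3 in treated cultures. These values are below the brightness needed for a test, and no change of this ligand could be measured. Its relative Wnt10a was tested, with means of 29.9 ± 7.13 (SD, n = 3) and 27.0 ± 0.971 and a difference of -0.08 (adjusted p = 0.844). Wnt11, Wnt3a, Wnt4 and Wnt7a had -0.14, -0.12, -0.15 and -0.08, with standard errors from 0.20 to 0.36. Wnt8b had the lowest value of the ligands, -0.46 ± 0.23 (adjusted p = 0.277), from a mean of 36.6 ± 14.8 to 21.8 ± 6.57.

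Wnt7b gave 2 readings. The brighter probe set had 80.4, 126 and 91.2 in control and 80.8, 78.0 and 84.6 in treated cultures, and a difference of -0.23 (adjusted p = 0.431). The dimmer one had 15.3, 24.0 and 17.5 in control and 6.4, 5.3 and 4.0 in treated cultures, without overlap. It fell below the brightness filter, and when every probe set was tested it was the sole member that passed (-0.71, adjusted p = 0.0456), while Lrp6 and Sfrp2 then did not (adjusted p = 0.0738 and 0.0881).

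**Figure D3:**
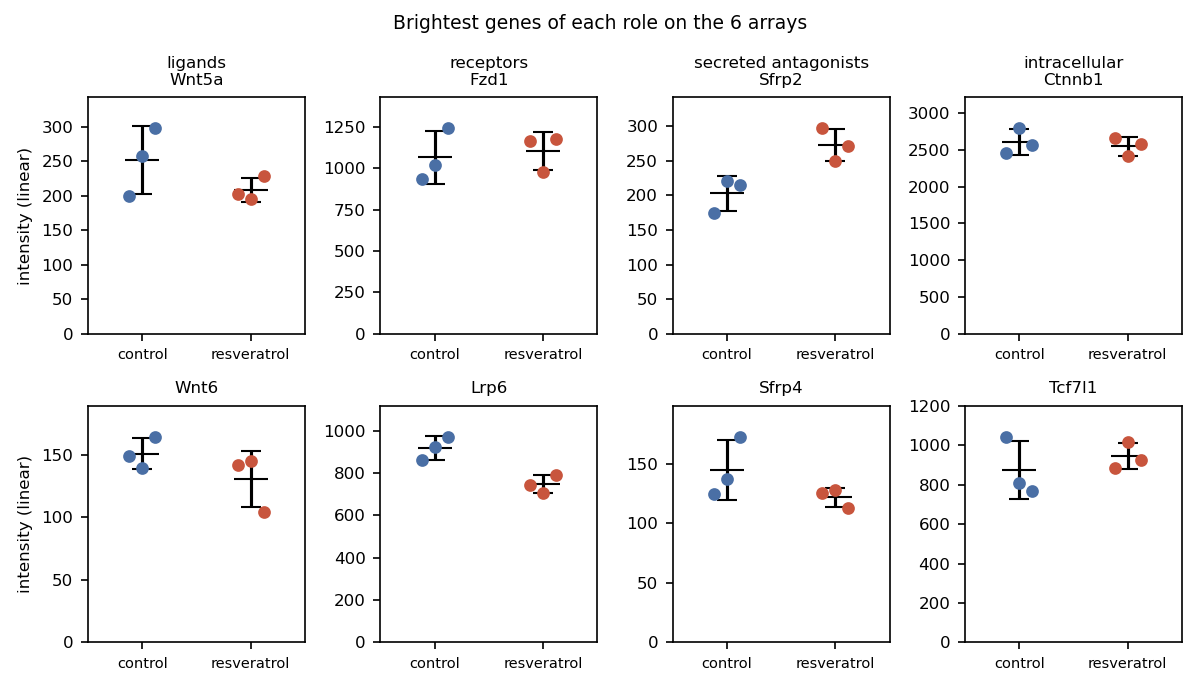
Intensity on each of the 6 arrays (points; linear axis from 0) of the 2 genes with the highest signal in each role, with mean and SD as bars. Lrp6 and Sfrp2 separate the groups; for Wnt5a, Wnt6, Fzd1, Sfrp4, Ctnnb1 and Tcf7l1 the groups overlap. Signals of different probe sets are not comparable as amounts of transcript.

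Of the 10 secreted antagonists 5 were tested, and beside Sfrp2 none passed. Sfrp4 had 125, 138 and 173 in control and 126, 128 and 113 in treated cultures. The groups overlapped, and the difference was -0.21 ± 0.12 (95% interval -0.49 to 0.06, adjusted p = 0.371), so that its sign is opposite to that of Sfrp2. Sfrp1 was tested by 1 of its 5 probe sets, one that may cross-hybridise, with 27.6, 7.6 and 17.9 in control and 32.7, 30.7 and 34.5 in treated cultures. The groups did not overlap, the difference was 0.57 ± 0.22 (adjusted p = 0.157), and the other 4 probe sets of Sfrp1 were below the filter. Sfrp5, an antagonist of Wnt5a found in fat tissue, had 51.1, 7.0 and 54.8 in control and 66.5, 27.2 and 75.8 in treated cultures. Control replicate 2 and resveratrol replicate 2 stood far below the others of their groups, and the difference was 0.53 ± 0.40 (adjusted p = 0.51). Its dimmer probe set had -0.02 (adjusted p = 0.985).

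Dkk3, the divergent member of the Dickkopf family, had 0.02 and 0.30 at its probe sets (adjusted p = 0.961 and 0.451). Dkk1, Dkk2 and Dkk4, Dickkopf proteins that bind Lrp5 and Lrp6, were too dim to be tested, as were Frzb and Wif1. The 40 member probe sets that were not tested had mean intensities over the 6 arrays from 1.82 to 19.2, and no single array exceeded 33.8. They cover all probe sets of 17 genes: the ligands Wnt1, Wnt2, Wnt2b, Wnt3, Wnt5b, Wnt8a, Wnt9a, Wnt9b, Wnt10b and Wnt16, the receptors Fzd9 and Ror2, and the antagonists Dkk1, Dkk2, Dkk4, Frzb and Wif1.

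None of the 5 intracellular genes passed in limma, and 1 had an unadjusted p under 0.05, beside 21.7% of all probe sets tested. Ctnnb1, which encodes beta-catenin, had 2460, 2794 and 2568 in control and 2662, 2410 and 2581 in treated cultures at its brightest probe set. The groups overlapped, and the difference was -0.03 ± 0.08 (95% interval -0.21 to 0.15, adjusted p = 0.883). Its second probe set had -0.01 (adjusted p = 0.974). The third, of lowest signal, had 493, 512 and 522 in control and 395, 381 and 496 in treated cultures and a difference of -0.26 (adjusted p = 0.138), and it passed without resveratrol replicate 3, at -0.38 (adjusted p = 0.028). These are transcript levels, and the stability of the beta-catenin protein, through which Wnt signals act, was not measured.

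Tcf7l2, the main Tcf factor of many adult tissues, had probe sets of opposite sign. Its brightest probe set had 304, 277 and 303 in control and 335, 343 and 333 in treated cultures. The dimmest of its 4 probe sets had 88.1, 110 and 108 in control and 86.0, 70.7 and 87.2 in treated cultures. In both the groups did not overlap, with treated values above control in the former and below it in the latter, at 0.19 ± 0.08 and -0.28 ± 0.13, and neither passed (adjusted p = 0.192 and 0.246). The other probe sets of Tcf7l2 had 0.16 and 0.11.

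Tcf7l1, a factor that mostly acts as a repressor, had 1044, 810 and 769 in control and 888, 1017 and 928 in treated cultures. The difference was 0.12 ± 0.11 (95% interval -0.12 to 0.36, adjusted p = 0.6). Its dimmer probe set had 731, 746 and 681 in control and 673, 584 and 676 in treated cultures and a difference of -0.16 (adjusted p = 0.3), with groups that did not overlap. Lef1 had means of 197 ± 30.8 (SD, n = 3) and 189 ± 29.1 and a difference of -0.06 (95% interval -0.35 to 0.24, adjusted p = 0.862). Axin2, a feedback inhibitor widely used as a reporter of beta-catenin activity, had 12.0, 35.7 and 31.7 in control and 26.4, 26.4 and 20.7 in treated cultures. Its signal was dim, and the interval of the difference, from -0.54 to 0.49, leaves room for a change in either direction (-0.02, adjusted p = 0.973).

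Across all roles, the 3 control and 3 resveratrol arrays did not overlap for 12 of the 59 tested probe sets, 8 higher and 4 lower. That is 20.3% of them, beside 26.4% of all probe sets tested (13.8% higher and 12.6% lower). The higher ones belonged to Fzd2 (2 probe sets), Fzd4, Fzd5, Fzd7, Sfrp1, Sfrp2 and Tcf7l2, and the lower ones to Lrp6 (2 probe sets), Tcf7l1 and Tcf7l2. For 17 genes more than 1 probe set was tested. The signs matched within 8 of these genes, among them Lrp6, Ctnnb1, Fzd1, Fzd2 and Fzd4, and differed within 9, among them Wnt5a, Tcf7l1, Tcf7l2, Fzd3 and Lef1.

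**Figure D4:**
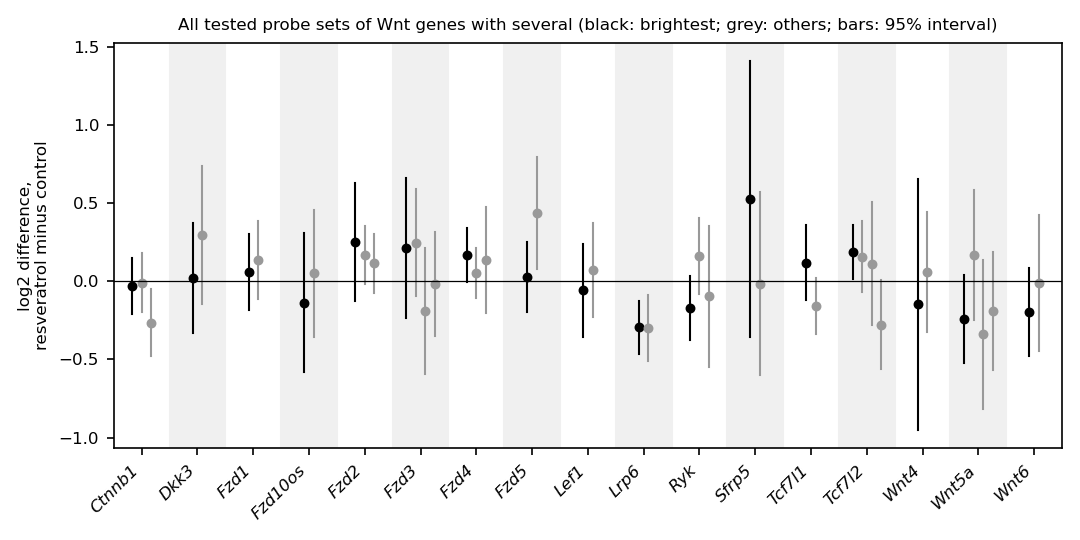
Difference on the log2 scale (vertical axis) with its 95% interval, for every tested probe set of the 17 genes with more than 1; black marks the brightest probe set, grey the others. Both Lrp6 probe sets lie at about -0.30, whereas Tcf7l2 runs from 0.19 to -0.28.

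Other genes of the pathway, which the naming rule does not take in, were followed through a list of 60 secretion factors, modulators and intracellular components. Of these, 59 had a probe set, 46 were tested, 2 rose, 0 fell and 44 did not pass in limma. The 2 are 4.35% of those tested from the list, beside 10.5% of all genes tested, and the list median was 0.04. At an unadjusted p under 0.05 it was 10 of the 46, 8 higher and 2 lower, beside 21.7% of all probe sets tested. Lgr4, a receptor for R-spondins that protects Frizzled and Lrp6 proteins from removal, had 777, 729 and 796 in control and 1020, 992 and 1052 in treated cultures. The groups lay well apart, and Lgr4 rose by 0.41 ± 0.07 (SE, n = 3 per group, adjusted p = 0.00569, limma). It passed without any 1 of the 6 arrays, with adjusted p from 0.00867 to 0.0337, but not without an intensity trend (adjusted p = 0.0554).

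Prickle2, a component of the planar cell polarity branch, had 271, 279 and 264 in control and 334, 333 and 367 in treated cultures. It rose by 0.33 ± 0.08 (adjusted p = 0.0289), and the call was lost without any 1 of the 6 arrays, with adjusted p from 0.0536 to 0.0949. The R-spondin ligands Rspo2 and Rspo3 had 0.66 and 0.60 at dim signals and did not pass (adjusted p = 0.095 and 0.067). Genes of the destruction complex did not pass, with Apc at 0.13, Axin1 at 0.15, Gsk3b at -0.10 and Csnk1a1 at -0.01, nor did Porcn and Wls, which are needed to make and release Wnt proteins, at 0.22 and 0.04.

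A list of 24 genes known as targets of beta-catenin in various tissues had 19 tested members, of which 4 rose, 1 fell and 14 did not pass, with a median of -0.01. The called genes are 26.3% of those tested from the list, beside 10.5% of all genes tested. In limma 10 of the 19 had an unadjusted p under 0.05, 6 higher and 4 lower, beside 21.7% of all probe sets tested. The list was chosen with earlier results known, and these genes answer to many other signals as well. Myc, a growth regulator, had 428, 328 and 359 in control and 566, 543 and 632 in treated cultures and rose by 0.63 ± 0.10 (SE, n = 3 per group, adjusted p = 0.0038, limma). Ccnd1, which encodes cyclin D1, rose by 0.36, 0.47 and 0.36 at its 3 probe sets, each of which passed (adjusted p = 0.0272, 0.00673 and 0.0121). Birc5, the mitotic survival factor survivin, rose by 0.47, and Id2, an inhibitor of bHLH factors, by 0.68 at a dim signal (adjusted p = 0.00844 and 0.0412). The call of Id2 was lost without control replicates 1 or 2 or any of the resveratrol replicates, with adjusted p from 0.0865 to 0.134. That of the brightest Ccnd1 probe set was lost without control replicate 2 and without resveratrol replicates 1 and 3, with adjusted p of 0.114, 0.114 and 0.0741.

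Fosl1, the AP-1 subunit Fra-1, fell. It had 332, 316 and 313 in control and 129, 120 and 131 in treated cultures, and the difference was -1.24 ± 0.09 (adjusted p = 1.5e-05). Its other probe set had -0.72 (adjusted p = 0.0286). Of the other genes on the list, Sp5, Tnfrsf19, Fgf18 and Cdx1 were too dim to be tested. Ccn4 and Ccn5 had 0.01 and 0.22 and did not pass (adjusted p = 0.954 and 0.366, limma). Axin2, a member and so not on the list, has been given above.

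**Figure D5:**
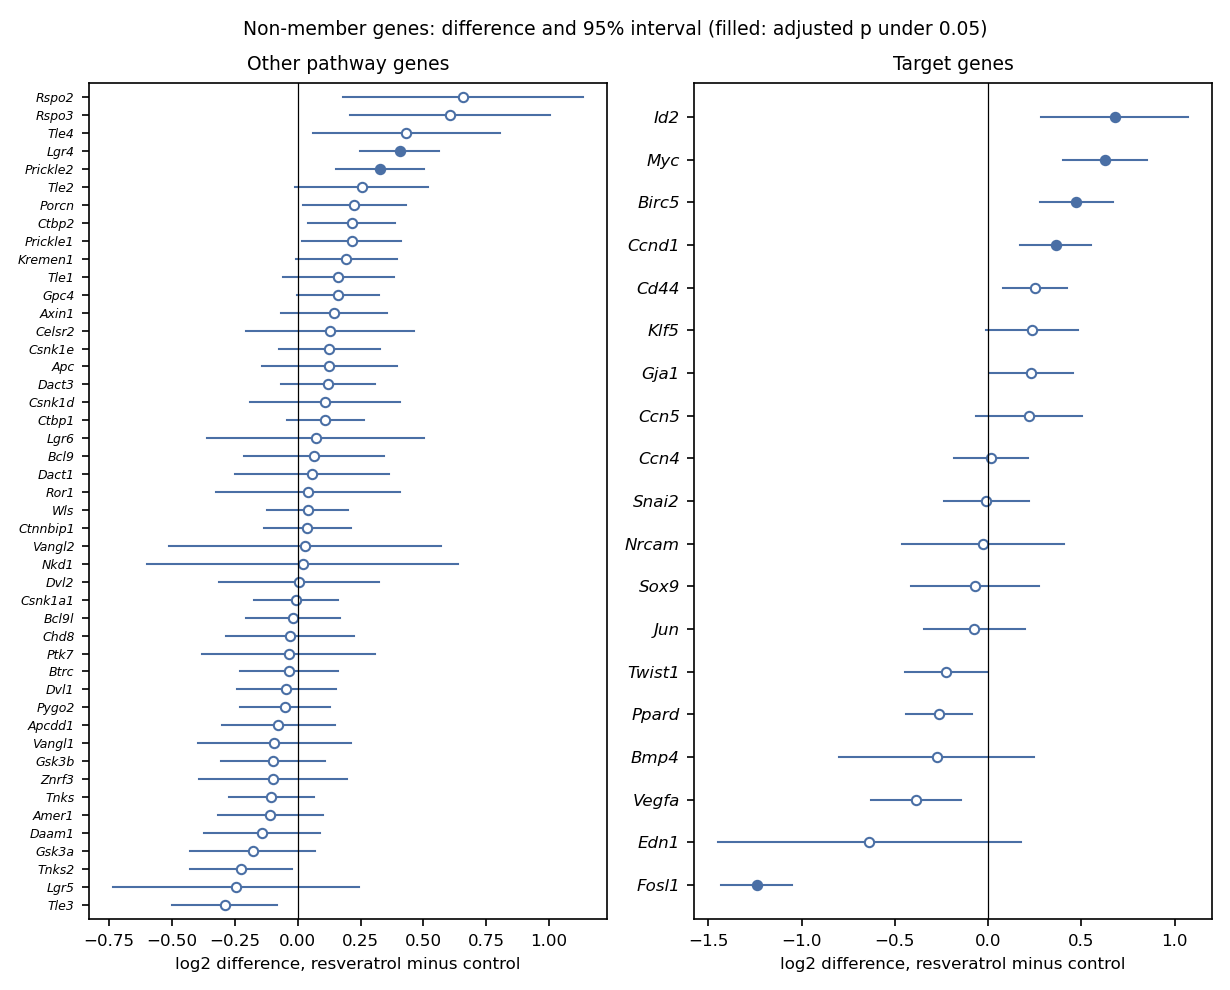
Difference on the log2 scale with 95% interval for the tested genes of the list of other pathway genes (left, 46 genes) and of the list of target genes (right, 19 genes); filled points passed at an adjusted p of 0.05. On the left Lgr4 at 0.41 and Prickle2 at 0.33 are filled, and on the right Id2, Myc, Birc5 and Ccnd1 above 0 and Fosl1 at -1.24.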

How the data were processed

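Each deposited value is a linear intensity of 1 probe set. Values of control replicate 1 carry more decimals than those of the other arrays. On that array 0 values were exactly 0, against 4 to 9 on each of the others. Whether it was processed apart from them is not stated. The labels and headers used here name no summarising software, so that step is not stated. As read from the deposited columns, the authors scaled each array to a mean of 150 after trimming 2% at each end, without quantile normalization, so differences between arrays that depend on signal remain. Genes were taken from the platform annotation, and all 49 member symbols matched the RefSeq table of assembly GRCm38.p6. The array has no stated genome build, so no coordinates are given.

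The 64 control probe sets were left out. Values became log2(intensity + 16), and probe sets in the top 60% by mean log2 value were tested with limma 3.58.1 in R 4.3.3 (lmFit, eBayes with an intensity trend), 2-sided. Adjusted p are Benjamini-Hochberg over the 27022 probe sets tested, and in an alternative over the probe sets or genes that it tested. A gene is represented by the probe set with the highest mean intensity. The fit was tested on simulated data with planted changes larger than those of Lrp6 and Sfrp2, so that check does not bear on changes of their size. Named in full are members with a probe set that passed and the 2 brightest genes of each role, and of each list of non-members up to 6 that passed; other values were chosen after they were seen. Members and lists were chosen with earlier results of these data known. Alternatives were other scaling, offsets, filters and variance models, blocks by replicate number and by spike signal (18 probe sets), averaging a gene over its probe sets, dropping probe sets with a cross-hybridisation suffix, and leaving out each array. Figures were made with matplotlib 3.10.9 under Python 3.11.15.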

Additional observations from a re-analysis of the deposited data

How the results depend on the processing

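The 59 tested Wnt probe sets gave 2 calls, Lrp6 and Sfrp2, and these same 2 with quantile normalization, offsets of 1 and 64, the brightest 40% of probe sets, and without probe sets that may cross-hybridise. Without a filter, with 45037 tests to adjust for, 1 Wnt probe set (the dimmer of Wnt7b) and 0 Wnt genes passed in limma (10 and 6 at an unadjusted p under 0.05), with 3 target genes and 1396 probe sets in all. Without an intensity trend 0 Wnt probe sets and 0 genes passed in limma (6 and 4 at an unadjusted p under 0.05), with 1 pathway gene and 861 probe sets in all; the cause was not tested. With the spike signal split as a block it was 1 Wnt probe set, 1 Wnt gene and 1 pathway gene. Averaged over each gene's probe sets, 8 target genes passed in place of 5, and 3 Wnt genes. Leaving out 1 array at a time gave 0 to 1 Wnt probe sets (5 to 15 at an unadjusted p under 0.05), 0 to 1 Wnt genes, 1 to 2 pathway genes, 3 to 5 target genes and 1131 to 1952 probe sets in all, with fewer samples in each fit. The median over the Wnt genes moved between -0.08 and 0.07 in these fits.

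With the replicate block 0 Wnt probe sets, 0 Wnt genes and 1 pathway gene passed in limma (Lrp6 at adjusted p = 0.0502, Sfrp2 at adjusted p = 0.0717; 10 probe sets and 7 genes at an unadjusted p under 0.05), and 1894 probe sets in all. Deviations of same-numbered arrays correlated at -0.06, -0.02 and 0.09, and not every array correlated best with its own number. With so few arrays these values cannot show whether same-numbered cultures shared a day or a batch. No called value changed sign under any alternative run. Dim signal limits the 17 genes that were not tested.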
